A study of Homo sapiens with 12 samples.

Results

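The ER-resident selenoproteins were followed here as 6 genes (SELENOS, SELENOK, SELENOT, SELENOM, SELENOF and SELENON), found in a table of 20015 genes by matching the Ensembl ID, without its version, to the gene symbol. All 6 had a row in the table, and 5 of them had enough reads to be tested. SELENON did not pass the filter on low counts. Gene expression was measured by RNA sequencing in 12 libraries of HT29 cells, a human colorectal adenocarcinoma line, all of which express the Cas9 nuclease. QRICH1 KO cells carried a lentiviral guide RNA against QRICH1, and WT cells carried a non-targeting guide. Cells received tunicamycin (Tm, 0.3 µg/ml) or DMSO over 14 h, with 3 libraries in each of the QRICH1 KO Tm, WT Tm, QRICH1 KO DMSO and WT DMSO groups. Whether the QRICH1 KO cells were a single clone or a pool is not given in the sources used here. The study asks how QRICH1 shapes the transcriptional response to ER stress.

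Selenoproteins contain selenocysteine, an amino acid that is inserted at a UGA codon when the mRNA carries a stem-loop recognised by a dedicated set of factors. The members studied here reside in the membrane or lumen of the ER. SELENOS and SELENOK are small membrane proteins that bind the Derlins and the ATPase VCP, which pull misfolded proteins out of the ER for degradation. SELENOF and SELENOM are related lumenal proteins with a thioredoxin-like fold, and SELENOF binds the glycoprotein folding sensor UGGT. SELENOT is a membrane protein with a thioredoxin-like fold that has been found with the oligosaccharyltransferase, and SELENON is a membrane glycoprotein that acts on the calcium pump SERCA2 and is mutated in a congenital myopathy. With tunicamycin, new proteins in the ER lack sugar chains that they would normally carry, and misfolded proteins then build up there.

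Promoter windows from RefSeq (GRCh38.p14), the 250 bases before the gene start, are shown for SELENOS and SELENOK, the members with the largest well-measured Tm response, for SELENOT, which was not called, and for HSPA5, the gene of the ER chaperone BiP, as a known example of the ER stress response element (ERSE). The windows lie at chr15:101277486-101277735 (minus strand), chr3:53891860-53892109 (minus strand), chr3:150603071-150603320 (plus strand) and chr9:125241344-125241593 (minus strand), in that order. They are printed from the 5′ end of the gene's own strand, and capitals mark every CCAAT and CCACG, the 5-base blocks at the ends of the ERSE, on either strand (ATTGG and CGTGG are the same blocks on the other strand).
SELENOS: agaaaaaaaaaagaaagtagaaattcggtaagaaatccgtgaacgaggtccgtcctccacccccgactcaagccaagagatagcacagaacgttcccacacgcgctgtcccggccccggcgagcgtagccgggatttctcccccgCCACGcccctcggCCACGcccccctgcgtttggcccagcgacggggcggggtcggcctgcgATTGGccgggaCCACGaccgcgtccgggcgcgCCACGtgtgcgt
SELENOK: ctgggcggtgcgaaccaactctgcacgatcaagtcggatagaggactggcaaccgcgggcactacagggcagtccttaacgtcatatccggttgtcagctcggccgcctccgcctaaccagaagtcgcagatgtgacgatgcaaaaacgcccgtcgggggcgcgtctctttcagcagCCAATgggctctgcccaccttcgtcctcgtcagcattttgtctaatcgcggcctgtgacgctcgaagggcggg
SELENOT: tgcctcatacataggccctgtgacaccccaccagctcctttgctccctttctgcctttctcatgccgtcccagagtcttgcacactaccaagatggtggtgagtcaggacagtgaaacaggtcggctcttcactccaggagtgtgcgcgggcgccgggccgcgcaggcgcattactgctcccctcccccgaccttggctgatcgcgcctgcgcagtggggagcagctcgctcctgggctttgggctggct
HSPA5: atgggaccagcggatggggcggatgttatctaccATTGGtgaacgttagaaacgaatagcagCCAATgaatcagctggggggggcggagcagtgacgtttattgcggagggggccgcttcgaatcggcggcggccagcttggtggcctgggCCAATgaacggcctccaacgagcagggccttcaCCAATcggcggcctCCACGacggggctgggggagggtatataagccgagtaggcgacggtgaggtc
The SELENOS window holds CCACG at 4 places and 1 ATTGG, the SELENOK window holds 1 CCAAT, and the SELENOT window holds neither block. In the HSPA5 window 1 CCAAT and the CCACG after it form a complete ERSE. The gene starts used for the windows are those of RefSeq. By the GENCODE 29 positions given below, the SELENOT window lies wholly inside the gene, and the SELENOS and SELENOK windows lie partly inside theirs.

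The full motifs were searched on both strands over the 300 bases from 250 before to 50 after each start, in the 5 members with an entry (SELENOS, SELENOK, SELENOT, SELENOF and SELENON). They were the ERSE (CCAAT, 9 bases of any kind, then CCACG), ERSE-II (ATTGG, 1 base of any kind, then CCACG), the core of the unfolded protein response element (TGACGTGG) and the core of the C/EBP-ATF response element (TGATGNAA). None of the 6 windows of these 5 genes, of which SELENOF has 2, held any of the 4 motifs. Of all 35116 windows in the table, 0.0769% held the ERSE, 0.0541% ERSE-II, 0.729% the unfolded protein response element core and 3.62% the C/EBP-ATF core. The separate blocks, chosen for display after the full motifs had been searched, are common, with CCAAT in 34.6% and CCACG in 38.1% of all windows. The absence of a match says only that these letters are not in the window.

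Total counts ranged from 6856736 to 17861844 per library, and 3 counts, the most that a listed 0 still permits, equal 0.168 to 0.438 CPM depending on the library. Levels are given as CPM, counts relative to the library size, after TMM scaling. Most libraries had counts for 13124 to 14094 genes, against 15340 in library 3 of QRICH1 KO DMSO and 14813 in library 3 of QRICH1 KO Tm. All 9 epithelial markers were detected and summed to between 57900 and 98600 CPM. KRT8 and KRT18, with means of 45100 and 26200 CPM over all libraries, held most of this sum. KRT19, EPCAM, CDH1 and VIL1 averaged 2870, 1680, 170 and 65.9 CPM. CDX2, CEACAM5 and CEACAM6 averaged only 0.684, 1.29 and 1.45 CPM, near the limit. Of 15 markers of blood, stroma and endothelium, LYZ, which gut secretory cells also express, held nearly all of the sum, and the other 14 together had 2.84 to 6.44 CPM. The summed level of the 15 was 2090 to 2360 CPM in QRICH1 KO Tm, 1840 to 1930 in WT Tm, 2030 to 2660 in QRICH1 KO DMSO and 2300 to 2610 in WT DMSO, and its part in the results was not tested. QRICH1 mRNA averaged 22.8 ± 3.84 CPM in QRICH1 KO Tm and 29.2 ± 3.04 CPM in WT Tm (SD, n = 3 each), groups that overlapped and were not called different (edgeR adjusted p = 0.352), so the mRNA gives only a weak check of the genotype labels.

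**Figure D1:**
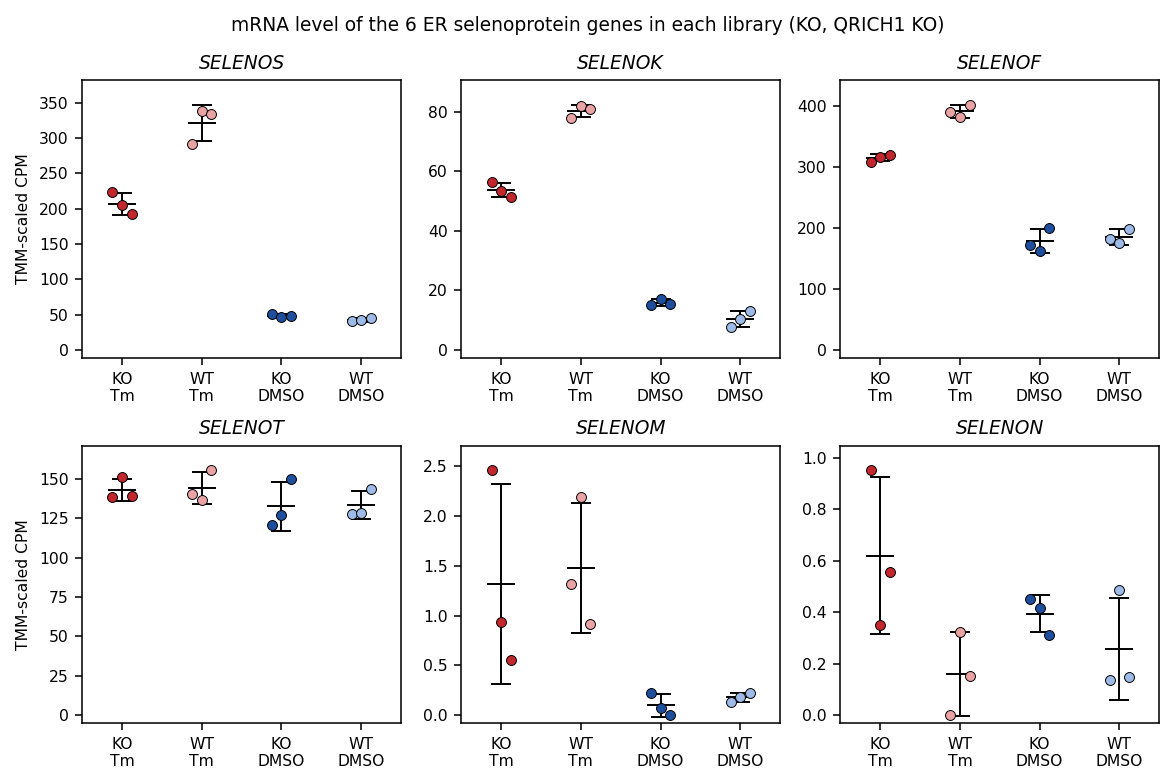
TMM-scaled CPM (vertical axes) of the 6 genes in each of the 12 libraries, with KO standing for QRICH1 KO. Points are libraries, and horizontal marks with bars are the mean and SD of 3 libraries. SELENOS, SELENOK and SELENOF stand higher in both Tm groups than in both DMSO groups, SELENOT stays between 120.5 and 155.4 CPM, and SELENOM and SELENON lie at or below 2.46 CPM.

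Tm against DMSO in WT asks how the ER stressor changed these mRNAs in cells with the non-targeting guide. SELENOS and SELENOK each rose 7.55-fold, SELENOF rose 2.11-fold, and no change was called for SELENOT. Of the 4 tested genes other than SELENOM, 3 were called higher and none lower, where 12.6% of all 11323 genes tested were called higher and 11.1% lower. SELENOM is left out of this count because the count filter bears on its result. The members were picked with such results known, and a count among so few genes describes only these genes. In bulk RNA, a lower level cannot be told apart from a smaller share of cells that express the gene.

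SELENOS (ENSG00000131871.15, chromosome 15:101270817-101277500, minus strand, hg38, GENCODE 29) had 291.5, 337.6 and 334.3 CPM in WT Tm libraries 1 to 3, against 40.4, 41.7 and 45.4 CPM in WT DMSO libraries. Every WT Tm library was far above every WT DMSO library. The mean was 321 ± 25.7 CPM in WT Tm and 42.5 ± 2.59 CPM in WT DMSO (SD, n = 3 each), a log2 fold change of 2.92 (SE 0.112, edgeR adjusted p = 1.2e-12). This change was larger than that of 99.3% of all genes tested.

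SELENOK (ENSG00000113811.11, chromosome 3:53884410-53891988, minus strand) had 77.8, 81.8 and 81.0 CPM in the WT Tm libraries, against 7.62, 10.5 and 13.1 CPM in WT DMSO. The WT Tm values were close together, while the WT DMSO values spread more, with the lowest from the library of 7529171 total counts. The log2 fold change was 2.92 (SE 0.153, edgeR adjusted p = 6.1e-11), equal to that of SELENOS at this precision. Processed pseudogenes of SELENOK (3) and of SELENOT (2) are annotated in GENCODE 29 and have no row in the table, and how reads shared with them were counted is not given in the sources used here.

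SELENOF (ENSG00000183291.17, chromosome 1:86862445-86914424, minus strand) had 391.6, 382.0 and 402.7 CPM in WT Tm, against 182.1, 175.2 and 199.4 CPM in WT DMSO. The groups did not overlap, which was true of 37.5% of all genes tested. The log2 fold change of 1.08 (SE 0.103, edgeR adjusted p = 2.91e-07) was smaller than those of SELENOS and SELENOK. Their intervals did not overlap, with 0.86 to 1.3 for SELENOF, 2.68 to 3.15 for SELENOS and 2.6 to 3.24 for SELENOK (95% intervals of the fit).

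SELENOT (ENSG00000198843.13, chromosome 3:150602875-150630445, plus strand) had 140.5, 136.2 and 155.4 CPM in WT Tm, against 127.9, 128.1 and 143.4 CPM in WT DMSO. The groups overlapped, and the log2 fold change of 0.11 (SE 0.109) was not called (edgeR adjusted p = 0.516), with a 95% interval of -0.12 to 0.34. With library totals in place of TMM scaling the value was -0.07, so it has no settled sign. SELENOT shares 61 of its 4135 exon bases with SERP1, an ER membrane protein gene on the opposite strand that rose 7.97-fold in WT. The library chemistry does not mark strand, so reads in those shared bases cannot be assigned to either gene.

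SELENOM (ENSG00000198832.10, chromosome 22:31104772-31120069, minus strand) had 16, 27 and 6 counts in WT Tm, against 1, 3 and 3 counts in WT DMSO. This is 1.32, 2.19 and 0.912 CPM in WT Tm and 0.136, 0.183 and 0.223 CPM in WT DMSO, so the WT DMSO level was at or below the limit of 3 counts. The gene passed the count filter only through the Tm libraries, so that it had to differ, and neither a fold nor its Tm test is given for either genotype.

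The second comparison set the 3 QRICH1 KO Tm libraries against the 3 QRICH1 KO DMSO libraries. SELENOS, SELENOK and SELENOF were again called higher and SELENOT was not called, with SELENOM left out as before, where 9.09% of all genes tested were called higher and 6.53% lower. SELENOS rose 4.27-fold, SELENOK 3.39-fold and SELENOF 1.77-fold. Each of these folds was smaller than in WT, a difference that the interaction tests. As references for the stress response, HSPA5 rose 14.6-fold in QRICH1 KO and 25.8-fold in WT, and HERPUD1, which serves ER-associated degradation, rose 22.9-fold and 31.7-fold in the same order (edgeR, each called).

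SELENOS had 223.3, 205.5 and 191.7 CPM in QRICH1 KO Tm, against 50.5, 46.2 and 48.5 CPM in QRICH1 KO DMSO. Its log2 fold change was 2.09 (SE 0.108, edgeR adjusted p = 1.3e-10). For SELENOK the values were 56.3, 53.5 and 51.3 CPM in QRICH1 KO Tm, against 14.9, 17.2 and 15.5 CPM in QRICH1 KO DMSO, with a log2 fold change of 1.76 (SE 0.144, edgeR adjusted p = 5.85e-08). All Tm libraries of both genes were above all DMSO libraries, as in WT. In QRICH1 KO, 32.4% of all genes tested had groups that did not overlap.

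SELENOF had 309.1, 317.2 and 320.3 CPM in QRICH1 KO Tm, against 171.7, 162.3 and 200.2 CPM in QRICH1 KO DMSO (log2 0.83, SE 0.103, edgeR adjusted p = 1.4e-05). SELENOT had 138.5, 150.8 and 139.2 CPM in QRICH1 KO Tm, against 120.5, 126.7 and 150.1 CPM in QRICH1 KO DMSO, and its groups overlapped (log2 0.11, 95% interval -0.12 to 0.34). SELENOM had 31, 8 and 7 counts in QRICH1 KO Tm, against 4, 1 and 0 counts in QRICH1 KO DMSO. Library 1 stood apart in QRICH1 KO Tm, and the QRICH1 KO DMSO counts were near the limit, so the Tm test is not given here either.

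SELENON (ENSG00000162430.17, chromosome 1:25800176-25818224, plus strand) stayed near the detection limit in every group. It had 12, 3 and 7 counts in QRICH1 KO Tm and 0, 4 and 1 in WT Tm, against 8, 6 and 5 counts for QRICH1 KO DMSO and 1, 8 and 2 for WT DMSO. No library reached 1 CPM. Fitted without the count filter, none of the 5 comparisons called it (edgeR adjusted p at least 0.602). The p-values of that fit are not on the scale of the main fit, as described below for DMSO. QRICH1 KO Tm libraries (0.351 to 0.952 CPM) all lay above WT Tm libraries (0 to 0.325 CPM). Such separation was seen in 18.5% of all genes tested. With so few counts, whether SELENON differed cannot be settled at this depth.

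**Figure D2:**
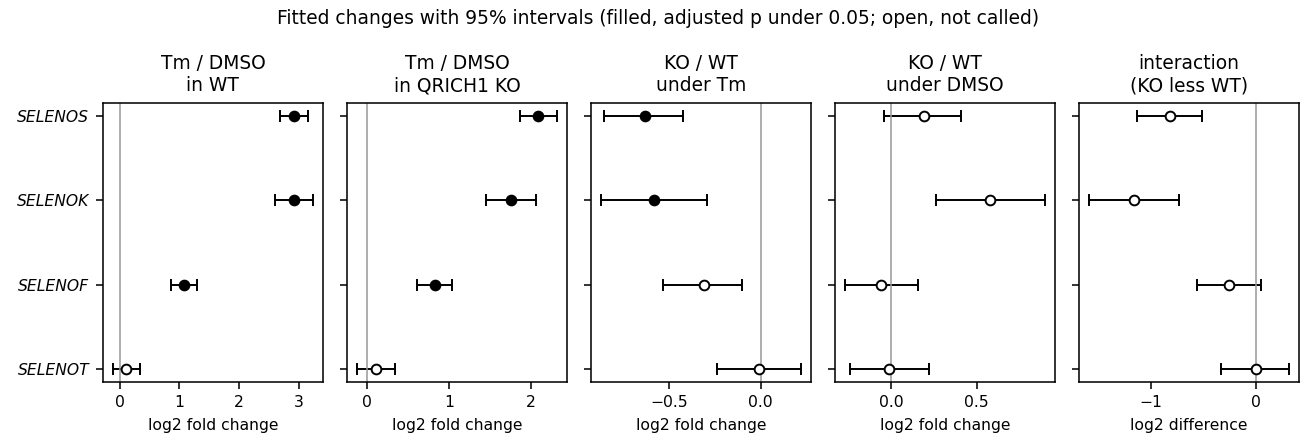
Fitted log2 changes (horizontal axes) of SELENOS, SELENOK, SELENOF and SELENOT in 4 comparisons, and the interaction (QRICH1 KO response minus WT response to Tm). Points are estimates and bars 95% intervals, filled where the edgeR adjusted p was under 0.05. SELENOS and SELENOK lie near 2.92 in WT, below 0 for QRICH1 KO against WT under Tm and below 0 in the interaction, while the bars of SELENOT span 0 in every panel.

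QRICH1 KO against WT under Tm asks whether the stressed level differed with genotype. This comparison shares the Tm libraries with the responses above, so it is not independent of them. SELENOS fell to 207 ± 15.8 CPM in QRICH1 KO Tm, against 321 ± 25.7 CPM in WT Tm (SD, n = 3 each). SELENOK fell to 53.7 ± 2.51 CPM in QRICH1 KO Tm, against 80.2 ± 2.15 CPM in WT Tm. These 2 of the 5 tested genes were called lower and none higher, where 0.76% of all genes tested were called lower and 0.406% higher.

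The log2 fold change of SELENOS was -0.63 (SE 0.103, edgeR adjusted p = 0.00484). It was called under all 21 alternatives tried, with adjusted p from 1.98e-06 to 0.0312. That of SELENOK was -0.58 (SE 0.137, edgeR adjusted p = 0.0465), close to the threshold. Its call was lost under 10 of the 21 alternatives, among them leaving out any 1 of the 6 Tm libraries (adjusted p 0.106 to 0.171), WT DMSO library 2 (0.0742) or QRICH1 KO DMSO library 2 (0.0703). The estimate itself stayed between -0.62 and -0.52. Without the libraries numbered 3 of both QRICH1 KO groups, which had the most genes detected, SELENOS was at -0.59 (adjusted p = 0.0228) and SELENOK at -0.55 (adjusted p = 0.113).

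SELENOF had 309.1 to 320.3 CPM in QRICH1 KO Tm and 382.0 to 402.7 CPM in WT Tm. These groups did not overlap, as in 18.5% of all genes tested, but the log2 difference of -0.31 (SE 0.102) was not called (edgeR adjusted p = 0.167). SELENOT had a log2 difference of -0.01 (95% interval -0.24 to 0.22, edgeR adjusted p = 0.981), with a sign that flips to 0.04 with library totals. For SELENOM the interval was -1.45 to 1.08, too wide to place its level in QRICH1 KO Tm relative to WT Tm.

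QRICH1 KO against WT under DMSO asks for a difference without added stress, and none of the 5 tested genes was called by edgeR, where 0.0971% of all genes tested were. At an unadjusted edgeR p under 0.05 there was 1 of the 5, SELENOK, where 9.07% of all genes tested were. DESeq2 called 0 of the 5, and 58 of all 11323 genes tested. SELENOK had 14.9 to 17.2 CPM in QRICH1 KO DMSO and 7.62 to 13.1 CPM in WT DMSO, which did not overlap (13.5% of all genes tested did not). Its log2 difference of 0.58 (SE 0.152) had an unadjusted edgeR p of 0.00133 and an adjusted p of 0.187. With no count filter the edgeR adjusted p was 0.0447. That fit changed more than the genes kept. For SELENOS with Tm in WT its SE was larger than in the main fit (0.139 against 0.112). The edgeR adjusted p was still far smaller there (4.95e-95 against 1.2e-12). The p-values of the unfiltered and main fits are thus on unlike scales, and what moved the SELENOK call was not tested. SELENOS had 46.2 to 50.5 CPM in QRICH1 KO DMSO and 40.4 to 45.4 CPM in WT DMSO, a log2 difference of 0.19 (SE 0.107, edgeR adjusted p = 0.61). SELENOF (-0.06, adjusted p = 0.89) and SELENOT (-0.01, adjusted p = 0.987) had log2 differences within their SE by the same test.

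The interaction asks whether the Tm response in QRICH1 KO differed from that in WT. edgeR called 0 of all 11323 genes tested (0.0%), with 774 at an unadjusted p under 0.05, and DESeq2 called 35. For SELENOS the response in QRICH1 KO less that in WT was -0.82 on the log2 scale (SE 0.149, edgeR adjusted p = 0.0721). For SELENOK it was -1.16 (SE 0.204, edgeR adjusted p = 0.0721). Both missed the threshold in this fit. DESeq2 called both, with adjusted p = 0.000729 for SELENOS and 0.000229 for SELENOK. For SELENOS with Tm in WT, DESeq2 gave an adjusted p of 3.47e-138, against 1.2e-12 in the main edgeR fit. The DESeq2 p-values are thus on another scale too, and its calls are not separate support. The edgeR fit with no count filter also called both (adjusted p = 0.00626 and 0.000498). Its p-values are not on the scale of the main fit, as described above for DMSO, so it is not separate support. For SELENOK the fitted difference between QRICH1 KO and WT was 0.58 under DMSO, where it was not called, and -0.58 under Tm. The adjusted p over the alternatives ranged from 0.000729 to 0.363 for SELENOS and from 0.000229 to 0.357 for SELENOK. SELENOF (-0.25, SE 0.144, edgeR adjusted p = 0.79) was not called, and SELENOT was near 0 (95% interval -0.33 to 0.32, adjusted p = 0.997), with a sign that changed with the scaling.

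**Figure D3:**
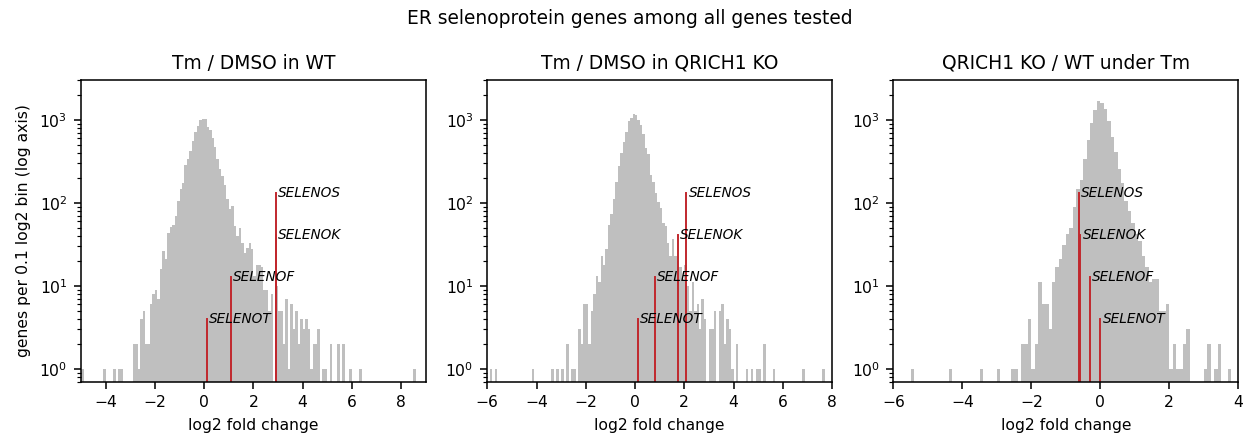
Distribution of the log2 fold changes of all 11323 genes tested (grey, number of genes per bin on a log axis) in 3 comparisons, with red lines at SELENOS, SELENOK, SELENOF and SELENOT. The height of a red line has no meaning. SELENOS lies above 99.3% of genes in WT and 99.2% in QRICH1 KO with Tm, and above 3.3% of genes for QRICH1 KO against WT under Tm, whereas SELENOT lies above 62.5%, 61.3% and 46.9% of genes in these comparisons.

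Levels were compared between genes only after division by exon length, as CPM per 1000 bases of merged GENCODE 29 exons. SELENOF was the highest of the 6 in every group, with 143 ± 2.63 CPM per 1000 bases for QRICH1 KO Tm, 178 ± 4.71 for WT Tm, 80.9 ± 8.96 for QRICH1 KO DMSO and 84.3 ± 5.67 for WT DMSO (SD, n = 3 each). Under DMSO the order below it was SELENOT, SELENOS and SELENOK in both genotypes, with 32.2 ± 2.15, 11.3 ± 0.688 and 4.81 ± 1.27 CPM per 1000 bases in WT DMSO. With Tm, SELENOS stood above SELENOT in both genotypes, at 54.9 ± 4.2 against 34.5 ± 1.67 in QRICH1 KO Tm and 85.3 ± 6.83 against 34.8 ± 2.43 in WT Tm, in the same unit. SELENOK (37.1 ± 0.993) and SELENOT overlapped in WT Tm, while in QRICH1 KO Tm SELENOK (24.8 ± 1.16) lay below every SELENOT library. SELENOM and SELENON were the lowest in every group. They overlapped each other in QRICH1 KO Tm, QRICH1 KO DMSO and WT DMSO, and in WT Tm every SELENOM library was above every SELENON library.

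Genes with the most similar profile were those with the highest Pearson correlation of log2 CPM over the 12 libraries, given as a description of libraries that fall into 4 shared groups. For SELENOS they were HSP90B1, an ER chaperone of the HSP90 family, the zinc finger gene ZNF165 and CRELD2, a stress-induced ER protein (each 0.996). For SELENOK they were MANF, a secreted ER stress protein (0.995), PREB, which loads the COPII coat GTPase SAR1 (0.992), and ZNF165 (0.99). For SELENOF they were the ER prolyl isomerase gene FKBP14 (0.994), MAGT1 (0.994) and OSTC (0.993), of which MAGT1 and OSTC belong to the oligosaccharyltransferase. SELENOT was most like ST3GAL6, PLEKHA8 and SMIM15 (0.854 to 0.872). For SELENOM the values (0.963 to 0.976, led by EEF1B2) rest on few counts.

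The response was compared with that of the other selenoprotein genes, of which 18 of 19 listed had a row and 13 were tested. With Tm, 2 rose, 2 fell and 9 were not called in each genotype. Over all genes tested 9.09% rose and 6.53% fell in QRICH1 KO, and 12.6% rose and 11.1% fell in WT, so these counts, from few genes, are not read as particular to the list. The median log2 fold change was -0.205 in QRICH1 KO and -0.351 in WT, against -0.004 and -0.024 over all genes tested. TXNRD1, the cytosolic thioredoxin reductase, rose in both, with 821 ± 130 CPM in QRICH1 KO Tm against 497 ± 33.3 CPM in QRICH1 KO DMSO, and 807 ± 67.8 CPM in WT Tm against 498 ± 34.3 CPM in WT DMSO (log2 0.72 and 0.7, edgeR adjusted p = 0.000417 and 0.000349). SELENOW, a small cytosolic selenoprotein, fell in both (log2 -0.49 in QRICH1 KO, adjusted p = 0.00547, and -0.72 in WT, adjusted p = 9.83e-05). SEPHS2, which makes the selenium donor selenophosphate and is itself a selenoprotein, rose in WT (log2 0.73, SE 0.231, edgeR adjusted p = 0.0273) and was not called in QRICH1 KO (log2 0.32). GPX2, a gut glutathione peroxidase, fell in WT (log2 -0.4, edgeR adjusted p = 0.0103) and was not called in QRICH1 KO (log2 -0.18). In QRICH1 KO, SELENOI, a phospholipid synthesis enzyme, rose (log2 0.59, edgeR adjusted p = 0.0291) and the mitochondrial reductase gene TXNRD2 fell (log2 -0.53, adjusted p = 0.0234). Both moved the same way in WT without being called (log2 0.26 and -0.4, edgeR adjusted p = 0.316 and 0.072). GPX3 was the single one called by genotype under Tm, ranging over 13.0 to 16.7 CPM in QRICH1 KO Tm against 7.91 to 8.66 CPM in WT Tm (log2 0.85, SE 0.203, edgeR adjusted p = 0.0485). This is close to the threshold, and the call was not examined under the alternatives tried for the members.

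All 15 genes listed for making and inserting selenocysteine were tested. In WT with Tm 2 rose, 2 fell and 11 were not called (median log2 -0.093), and in QRICH1 KO 1 rose and 14 were not called (median 0.012). Over all genes tested 12.6% rose and 11.1% fell in WT, and 9.09% rose and 6.53% fell in QRICH1 KO, shares near these counts. SARS1, which charges the selenocysteine tRNA with serine as well as serving serine tRNAs, rose in both, with a log2 fold change of 1.5 in QRICH1 KO (SE 0.124, edgeR adjusted p = 7.12e-08) and 2.04 in WT (SE 0.126, adjusted p = 7.11e-10). SECISBP2, which binds the selenocysteine stem-loop, had 37.6 ± 3.45 CPM in WT Tm against 28.6 ± 0.512 CPM in WT DMSO (log2 0.39, edgeR adjusted p = 0.0388), while EEFSEC, the elongation factor that delivers the tRNA, fell to 26.1 ± 5.72 CPM in WT Tm against 41.3 ± 1.6 CPM in WT DMSO (log2 -0.65, adjusted p = 0.00331). Both moved the same way in QRICH1 KO without being called (log2 0.32 and -0.4, edgeR adjusted p = 0.116 and 0.0763). LRP8, a receptor for the selenium carrier SELENOP, fell in WT with Tm (log2 -0.54, edgeR adjusted p = 0.0014) and was not called in QRICH1 KO (log2 -0.11). LRP8 was higher in QRICH1 KO Tm (76.6 ± 4.35 CPM) than in WT Tm (54.0 ± 5.18 CPM, edgeR adjusted p = 0.0278).

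The listed partners of the ER selenoproteins include the degradation complex, the glycoprotein sensor and the oligosaccharyltransferase. With Tm, 11 of 18 tested rose in QRICH1 KO and 12 of 18 in WT, and none fell (median log2 0.73 and 0.851), where 9.09% of all genes tested rose in QRICH1 KO and 12.6% in WT. SEL1L and SYVN1, the adaptor and ubiquitin ligase of the ER-associated degradation complex, rose 7.13-fold and 4.99-fold in QRICH1 KO and 9.98-fold and 8.27-fold in WT. The Derlin gene DERL2 rose by 1.49 in QRICH1 KO and 1.97 in WT on the log2 scale, DERL1 by 0.91 and 1.14 and VCP by 0.43 and 0.66 (edgeR adjusted p at most 0.0226 for each). UGGT1, UGGT2 and ATP2A2, which encodes SERCA2, also rose in both genotypes. ZDHHC6, the palmitoyltransferase that works with SELENOK, was not called in either, with 53.2 ± 3.6 CPM in QRICH1 KO Tm against 55.8 ± 4.38 CPM in QRICH1 KO DMSO, and 58.6 ± 3.14 CPM in WT Tm against 59.9 ± 4.45 CPM in WT DMSO. The oligosaccharyltransferase genes STT3A and OSTC rose, OSTC by 3.95-fold in QRICH1 KO and 5.32-fold in WT. OSTC was the single partner called by genotype under Tm, with 350 ± 7.46 CPM in QRICH1 KO Tm against 533 ± 9.85 CPM in WT Tm (log2 -0.61, edgeR adjusted p = 0.00828). In none of the 3 related lists was a gene called by genotype under DMSO or in the interaction by edgeR.

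**Figure D4:**
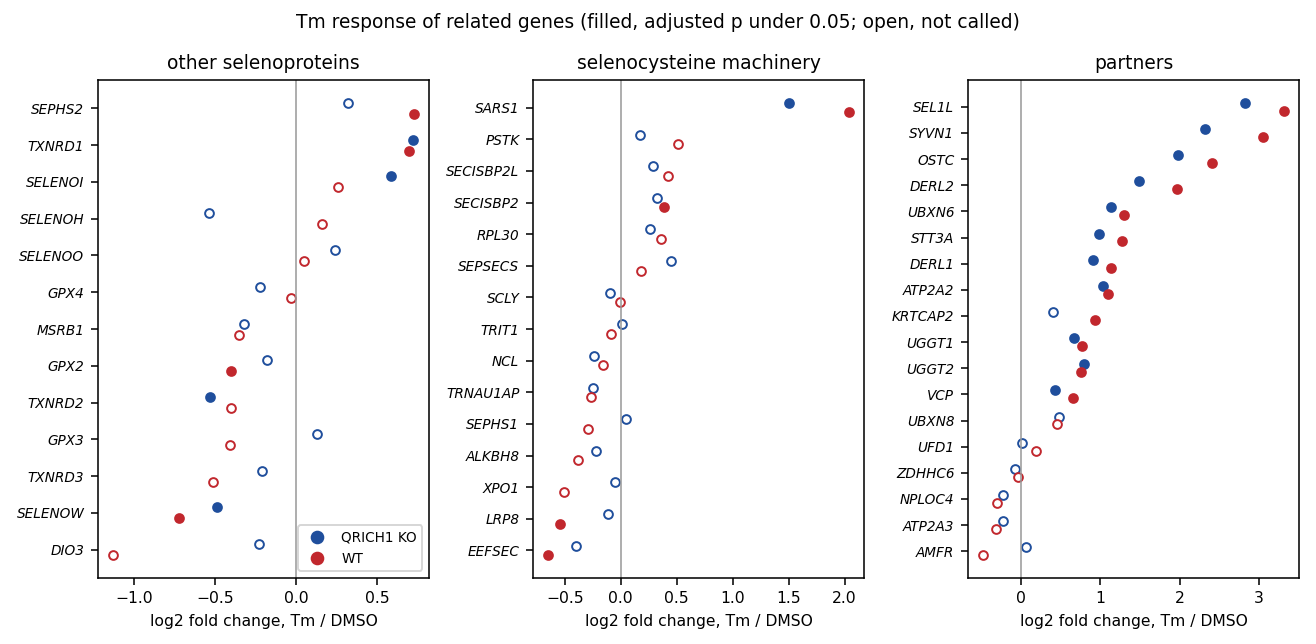
Log2 fold change of Tm against DMSO (horizontal axes) for the tested genes of the 3 related lists, in QRICH1 KO (blue) and WT (red). Filled points had an edgeR adjusted p under 0.05 and open points did not. Most partners lie to the right of 0, up to 3.32 for SEL1L in WT, while the other selenoproteins lie between -1.13 and 0.73.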

How the data were processed

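The deposited table holds unnormalised read counts of 20015 genes, with 12 columns that each carry a sample title. The submitters' processing notes list STAR, Trimmomatic and DESeq2 and the build hg38. How reads were counted, with which annotation and strand setting, is not given in the sources used here. Per the labels' protocols, libraries were made by a modified Smart-seq2 method and Nextera XT, which adds no molecular identifiers, so limits from counts cover counting error only.

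Genes were kept by filterByExpr (minimum count 10), which left 11323, and the counts were scaled with TMM factors. All 12 libraries entered 1 quasi-likelihood fit of the 4 groups in edgeR 4.0.16 (R 4.3.3). A gene was called at a two-sided p under 0.05 after Benjamini-Hochberg adjustment across the genes tested. Per the series design text the 3 libraries of a group are biological replicates, but how they were separated is not stated. Symbols came from a table that matched 19893 IDs, and positions and lengths from GENCODE 29. The fit was tried on simulated data for Tm against DMSO in WT only, and the outcome is not given here. No simulation covered the genotype comparisons or the interaction. The members and lists were chosen with earlier results of these data known. Named genes were the members, up to 3 called genes per list and comparison with the largest change and a mean of at least 10 CPM, the members' known partners, QRICH1, HSPA5 and HERPUD1 and, per member, the 3 most correlated genes. SERP1, GPX2, SECISBP2, LYZ and the epithelial markers were named after their values were seen. DESeq2 1.42.0, other scalings and filters, fits of fewer libraries and a replicate block were tried.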

Additional observations from a re-analysis of the deposited data

How the results depend on the processing

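Of 515 alternative values for single genes, 471 kept their direction and their side of the threshold. The total includes the SELENOM values with Tm, on which the count filter bears. It also includes fits without a library from outside the compared groups, which barely move the estimate, so the share is no measure of robustness. The counts of genes called with Tm stayed at 3 or 4 in both genotypes under every alternative when SELENOM is counted, and SELENOM, which a minimum count of 50 leaves untested, was the one lost. For QRICH1 KO against WT under Tm, 1 gene in place of 2 was called with library totals, 1 without the libraries numbered 3 of both QRICH1 KO groups, and 1 to 2 when 1 library was left out. SELENOS was the gene kept, and the cause was not tested. Under DMSO 1 was called with no count filter, a fit whose p-values are not on the scale of the main fit. For the interaction DESeq2 called 2, no count filter 2, and leaving out 1 library gave 0 to 1 (SELENOK without WT DMSO library 3, edgeR adjusted p = 0.0302). The p-values of DESeq2 and of the unfiltered fit are not on the scale of the main fit.

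Values that changed sign were all uncalled. SELENOT took log2 values of -0.07 (Tm in WT), -0.0024 (Tm in QRICH1 KO), 0.04 (genotype under Tm) and 0.07 (interaction) with library totals, which move the median of all genes to -0.21 for Tm in WT. Its interaction was 0.00187 with upper quartile factors, 0.00443 with a minimum count of 50 and 0.12 without the libraries numbered 3 of both QRICH1 KO groups, a setting that gave 0.00169 for SELENOT and 0.19 for SELENOM under Tm. With 1 library left out, SELENOT ranged from -0.05 to 0.04 (QRICH1 KO against WT under Tm), -0.11 to 0.05 (under DMSO) and -0.07 to 0.1 (interaction), SELENOM from -1.05 to 0.22 under Tm and from -0.24 to 2.0 in the interaction, and SELENOF from -0.15 to 0.00306 under DMSO.

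The replicate numbers were not taken as pairs, since deviations of same-numbered libraries correlated at -0.233 to 0.321 over all groups. Between QRICH1 KO Tm and QRICH1 KO DMSO, libraries numbered 1 (0.268) and 3 (0.321) deviated together, and those numbered 2 did not (0.002). With SELENOM counted, a replicate block left the counts of called genes at 4, 4, 2, 0 and 0, in the order of the comparisons above. Both counts of 4 include SELENOM, on whose Tm result the count filter bears. The replicate block gave 0.00226 for the SELENOT interaction. No library held more than 31 counts of SELENOM or 12 of SELENON.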
